A study of Mus musculus with 10 samples.

Results

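The epithelial keratins Krt7, Krt8, Krt18, Krt19, Krt20 and Krt23 were followed in colonic organoids, 6 genes of the 18820 with a symbol on the array. They were chosen by name, with Krt23 to be set against the 5 keratins of simple epithelium. Each was read by 1 probe set that carries its symbol alone, so no choice between probe sets was needed. Krt23 had been singled out on these same arrays, because its difference between rosiglitazone and vehicle in wild-type organoids had one of the smallest unadjusted p-values of any gene. Its values in that comparison, and in the difference between the responses of the genotypes, are therefore given as a description with no test.

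Keratins are the intermediate filament proteins of epithelial cells. Filaments form only from pairs of a type I and a type II keratin, and in the single-layered epithelium of the intestine Krt8 is the main type II partner of the type I keratins Krt18, Krt19 and Krt20. Krt7 is a second type II keratin of simple and ductal epithelia, Krt20 marks the differentiated cells at the mouth of the crypt, and Krt23 is a type I keratin best known for its induction in cancer cells by inhibitors of histone deacetylases.

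Organoids had been grown from the colonic crypts of 3 knockout and 3 wild-type male mice of C57BL/6J background. The knockout mice were homozygous for a Pparg allele with loxP sites around exons 1 and 2 and carried Cre driven by the villin promoter, which acts in the intestinal epithelium, and the controls were wild-type littermates. All cultures were in Matrigel with Wnt, Noggin, R-spondin and EGF, and received 1 µM rosiglitazone, an agonist of the nuclear receptor PPARγ, or 0.1% DMSO as vehicle, for 24 h. In wild type, vehicle was given to 2 cultures (mice 42 and 47) and rosiglitazone to 3 (mice 48, 42 and 47), and in knockout, vehicle to 2 (mice 46 and 44) and rosiglitazone to 3 (mice 46, 45 and 44), with 1 array per culture. Of the 6 mice, 4 therefore gave arrays of both treatments, and mice 45 and 48 gave rosiglitazone arrays only. The ages of the mice were not used here.

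Values are log2 RMA expression, in which a difference of 1 is a doubling. Arrays of 1 group correlated at r from 0.986 to 0.996. The arrays of mouse 46 stood apart, at -39.3 and -31.75 on the first principal component (27.4% of the variance), with all others between -4.10 and 19.6. Pparg (probe set 10540897) read 7.59 to 8.41 in the arrays labelled wild type and 7.37 to 8.78 in those labelled knockout. Where this probe set lies relative to the floxed exons is not known here, and it therefore checks neither the deletion nor the labels, and the genotypes below are those of the labels. The epithelial markers Epcam, Cdh1, Vil1, Cdx1, Cdx2, Hnf4a, Lgals4 and Cdh17 were all above the median of the annotated probe sets (4.51), with means from 4.55 (Cdx1) to 12.01 (Lgals4). Of 11 stromal markers, among them Col1a1, Dcn and Vim, and 10 immune and endothelial markers, among them Ptprc and Pecam1, 0 had a mean above that median, the highest being 3.99 and 2.68. In bulk RNA, fewer cells of a type and less RNA per cell cannot be told apart.

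Krt20 and Krt23 are direct neighbours in the type I keratin cluster of chromosome 11, and their 250 bases before the start are shown because these neighbours had different patterns. Both come from RefSeq (GRCm38.p6, minus strand), with Krt20 at chr11:99438154-99438403 and Krt23 at chr11:99493121-99493370. Capitals mark matches to TATAAA, the core of a TATA box, and to AGGTCA, the hexamer bound by many nuclear receptors, searched on both strands.
Krt20: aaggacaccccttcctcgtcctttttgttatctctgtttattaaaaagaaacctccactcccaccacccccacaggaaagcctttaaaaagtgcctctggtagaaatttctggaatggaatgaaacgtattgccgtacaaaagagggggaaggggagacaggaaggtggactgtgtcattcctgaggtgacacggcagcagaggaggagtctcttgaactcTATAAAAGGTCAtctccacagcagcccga
Krt23: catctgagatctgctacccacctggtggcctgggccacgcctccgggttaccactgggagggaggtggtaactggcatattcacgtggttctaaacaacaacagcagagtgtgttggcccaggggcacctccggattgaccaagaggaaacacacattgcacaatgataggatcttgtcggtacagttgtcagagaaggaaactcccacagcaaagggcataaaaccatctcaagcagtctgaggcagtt
In Krt20 the TATAAA lay 29 to 24 bases before the start and was followed without a gap by an AGGTCA at 23 to 18 bases. Neither exact string occurred in the Krt23 window. Near matches, such as the cataaaa in that window, were not searched. Among the 5 members with a promoter in the table, Krt8 (225 to 220 bases before the start) and Krt18 (108 to 103 bases) also held an AGGTCA. Of 32851 promoter windows of this length, 12.4% held TATAAA, 14% held AGGTCA and 0.0335% held AGGTCANAGGTCA, the repeat bound by PPARγ with its partner RXR, which was not found in the 5 windows. A match is a string of letters, not a bound site, and its part in the patterns of these genes was not tested.

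Of the keratins of simple epithelium, Krt7, Krt8, Krt18 and Krt19 were bright and steady, while Krt20 read lower and varied more. Krt8 read 12.48 and 12.55 in wild-type vehicle, 12.28, 12.54 and 12.52 in wild-type rosiglitazone (mice 48, 42 and 47), 12.31 and 12.43 in knockout vehicle (mice 46 and 44), and 12.36, 12.50 and 12.44 in knockout rosiglitazone (mice 46, 45 and 44). All 10 arrays thus lay within 0.28 of each other, the lowest being the array of mouse 48. Krt19, a type I keratin with almost no tail domain, was steadier still, from 11.52 to 11.74, a range of 0.22. Only 1.35% of all tested probe sets had a smaller range over the 10 arrays than Krt19, and 3.73% a smaller one than Krt8. The shares were 11.7% for Krt18 and 20.7% for Krt7. Such bright probe sets may respond less than proportionally, which was not tested.

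Krt18, the classical partner of Krt8, read 11.53 and 11.89 in wild-type vehicle, 11.73, 11.69 and 11.90 in wild-type rosiglitazone, 11.86 and 11.61 in knockout vehicle, and 11.81, 11.65 and 11.68 in knockout rosiglitazone. Mouse 47 had the highest value under both treatments among wild-type arrays, and mouse 46 among knockout arrays, so this spread followed the mouse more than the group. The 4 group means of Krt18 lay within 0.06 of each other. Krt7 read 11.72 and 11.74 in wild-type vehicle, 11.93, 11.50 and 11.53 in wild-type rosiglitazone, 11.81 and 11.85 in knockout vehicle, and 11.83, 11.77 and 11.80 in knockout rosiglitazone. The wild-type rosiglitazone group of Krt7 held both the highest array (mouse 48) and the lowest (mouse 42), while the 5 knockout arrays stayed within 11.77 to 11.85.

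Krt20, the keratin of mature surface cells, varied most, with a range of 1.97 (3.93-fold) over the 10 arrays. It read 7.28 and 7.86 in wild-type vehicle, 7.47, 7.15 and 7.93 in wild-type rosiglitazone, 7.47 and 7.14 in knockout vehicle, and 8.10, 6.12 and 7.78 in knockout rosiglitazone. The highest and the lowest array were both in knockout rosiglitazone, mouse 46 and mouse 45. Of all tested probe sets, 98.2% had a smaller range than Krt20 and 95.7% a smaller one than Krt23. Krt23 had the second widest range, 1.43 (2.69-fold), but here the arrays separated by genotype and, in wild type, by drug. It read 5.69 and 5.69 in wild-type vehicle, 5.08, 5.10 and 4.97 in wild-type rosiglitazone, 6.19 and 6.04 in knockout vehicle, and 6.39, 5.85 and 6.39 in knockout rosiglitazone. All 5 knockout arrays were above all 5 wild-type arrays, and the wild-type rosiglitazone arrays were the lowest 3 of the 10. The share of all probe sets that separate in this way was not counted, and Krt23 was chosen on these wild-type arrays. Within a group the standard deviation (SD) of Krt23 was 0.0031 (n = 2), 0.073 (n = 3), 0.10 (n = 2) and 0.31 (n = 3) in that order, and that of Krt20 was 0.41, 0.39, 0.23 and 1.06.

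**Figure D1:**
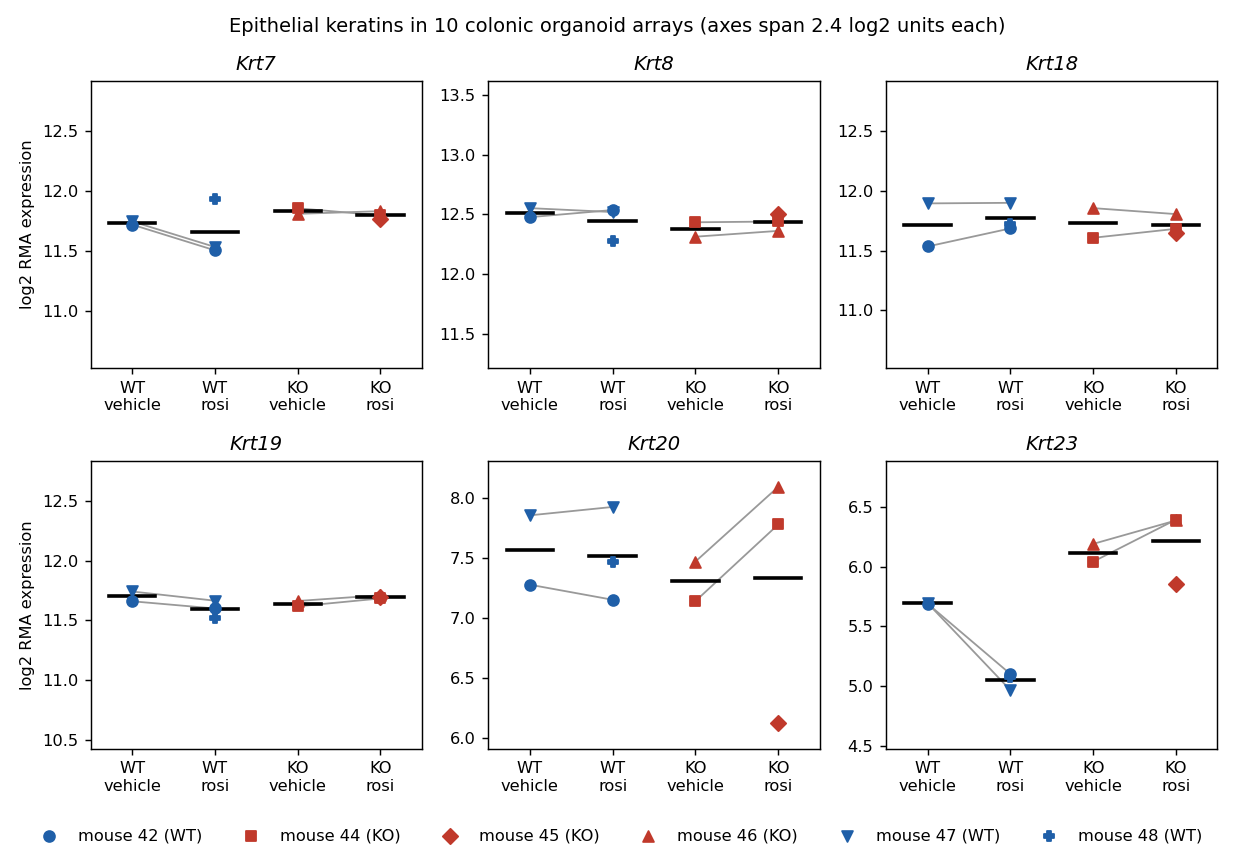
Log2 RMA expression of each of the 6 keratins (y axis) in the 4 groups of arrays (x axis, rosi for rosiglitazone), with 1 point per array, a symbol per mouse, a bar at the group mean and a grey line joining both arrays of a mouse. Krt7, Krt8, Krt18 and Krt19 are nearly level, Krt20 is spread within groups with mouse 45 lowest at 6.12, and Krt23 runs from 4.97 in wild-type rosiglitazone to 6.39 in knockout rosiglitazone.

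From highest to lowest, the group means of Krt23 were 6.21 in knockout rosiglitazone, 6.12 in knockout vehicle, 5.69 in wild-type vehicle and 5.05 in wild-type rosiglitazone. The first 2 of these overlapped and the other neighbours in this order did not. For the other 5 genes the group means spanned 0.18 (Krt7), 0.14 (Krt8), 0.06 (Krt18), 0.11 (Krt19) and 0.26 (Krt20). Krt8 and Krt20 both had their highest group mean in wild-type vehicle and their lowest in knockout vehicle, whereas Krt7, Krt19 and Krt23 had their lowest in wild-type rosiglitazone. Krt19 shared its highest group, wild-type vehicle, with Krt8 and Krt20.

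Rosiglitazone against vehicle in wild-type organoids asks which genes the drug moved where PPARγ is present. Krt23 was lower by 0.64 after the drug (difference -0.64, SE 0.17, 95% interval -1.02 to -0.26, n = 3 and 2), a 1.56-fold lower level. It was the member whose groups did not overlap, 1 of 6, where 15.4% of all 23099 tested probe sets had groups that did not overlap and 0% had an adjusted p under 0.05 (limma, 229 with an unadjusted p under 0.05). This is the contrast for which Krt23 was chosen, so nothing is read from it. Within mice, Krt23 was lower by 0.59 in mouse 42 (difference -0.59) and by 0.73 in mouse 47 (difference -0.73), and mouse 48, which had no vehicle array, read close to these rosiglitazone arrays.

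None of the other 5 keratins passed in this comparison (limma, adjusted p = 1 each). Krt7 differed by -0.08 (95% interval -0.40 to 0.25), Krt8 by -0.07 (-0.36 to 0.22), Krt18 by 0.06 (-0.28 to 0.39) and Krt19 by -0.11 (-0.36 to 0.15). These intervals leave room for changes of up to about 0.4 on the log2 scale in either direction. For Krt20 the interval was wide, -1.13 to 1.02 around -0.05. The donor as a block narrowed it little in the random form (-0.04, SE 0.37) and much in the fixed form (-0.03, SE 0.12), with mouse 42 at -0.13 and mouse 47 at 0.07. Krt7 was lower after the drug in both paired mice, by -0.22 and -0.21, and without the array of mouse 48 its group difference was -0.21 in place of -0.08 (adjusted p = 1).

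Genes of the differentiated colonocyte surface were mostly on the lower side in this comparison. Of 23 measured, 21 were lower (20 with each array centred on its median), with a median of -0.14 against 0.01 over all tested probe sets. The list includes dim genes, since 17 of the 23 had a mean above the median of all probe sets. Slc26a3, Aqp8 and Aqp4 were among those below it, with means of 2.60, 2.36 and 2.47. In limma 0 of the 23 passed, and 3 had an unadjusted p under 0.05. Slc9a3, the apical sodium-proton exchanger, was at 6.31 and 7.10 with vehicle, against 4.39, 5.70 and 6.58 with the drug (difference -1.15, SE 0.49, adjusted p = 1). Guca2a, which encodes the hormone guanylin, was at 7.25 and 7.22 with vehicle, against 5.67, 6.07 and 6.91 with the drug (difference -1.02, SE 0.47, adjusted p = 1). Mouse 48 had the lowest wild-type value of both genes, and without it the difference of Slc9a3 was -0.57 (SE 0.32). Without the vehicle array of mouse 47 it was -0.76, and without that of mouse 42 it was -1.54. Leaving out the rosiglitazone array of mouse 47 gave -1.66 (SE 0.39) for Slc9a3. For Guca2a, leaving out the rosiglitazone array of mouse 48 gave -0.74 (SE 0.51), and that of mouse 47 gave -1.36 (SE 0.47). The summed level of the 23 genes overlapped between the groups, at 14.41 to 14.48 (log2) in vehicle and 14.13 to 14.52 in rosiglitazone. Of 15 genes of the crypt base and cell cycle, 10 were higher (median 0.05), and 0 passed in limma (0 with an unadjusted p under 0.05). The part of these cell states in the Krt23 difference was not tested. Krt20, itself a surface marker, differed by -0.05.

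Rosiglitazone against vehicle in knockout organoids asks what the drug did where Pparg was targeted. Krt23 differed by 0.09 (SE 0.17, 95% interval -0.28 to 0.47, n = 3 and 2, adjusted p = 1, limma), and its groups overlapped. Both knockout mice with paired arrays were higher after the drug, by 0.20 in mouse 46 and 0.35 in mouse 44, while the array of mouse 45 was below both vehicle arrays. Without mouse 45 the Krt23 difference was 0.27 (SE 0.13, adjusted p = 1), and without the rosiglitazone array of mouse 46 or of mouse 44 it was 0.0070 or 0.0034. Leaving out the vehicle array of mouse 46 gave 0.17, and that of mouse 44 gave 0.021. Krt20 behaved likewise. It differed by 0.03 (SE 0.48, adjusted p = 1), yet was higher by 0.62 in mouse 46 and 0.64 in mouse 44. With the donor as a fixed block, or without mouse 45, its difference was 0.63 (SE 0.12 with the block, adjusted p = 0.64). In wild-type mice the within-mouse differences of Krt20 were -0.13 and 0.07.

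The other members differed by -0.03 (Krt7), 0.06 (Krt8), -0.02 (Krt18) and 0.06 (Krt19), with 95% intervals inside -0.36 to 0.35. Krt19 was the member whose groups did not overlap, 1 of 6 against 13.7% of all tested probe sets, and 0% of probe sets had an adjusted p under 0.05 (limma, 706 with an unadjusted p under 0.05). Its 3 rosiglitazone arrays read 11.68 to 11.71 and its 2 vehicle arrays 11.62 and 11.66, a gap smaller than the SE of the fit (0.12).

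Beside the higher within-mouse values of Krt20 stood those of some surface genes. In the knockout arrays Guca2a was at 4.58 and 5.5 with vehicle, against 5.77, 7.45 and 6.41 with rosiglitazone (mice 46, 45 and 44), and Slc9a3 was at 3.66 and 3.59 with vehicle, against 5.10, 5.12 and 4.74 with rosiglitazone. Every rosiglitazone array was above both vehicle arrays for these genes (differences 1.5 and 1.36, adjusted p = 1 each), opposite in sign to wild type. In mouse 45 Guca2a was at its highest and Krt20 at its lowest. Over the whole list 10 of 23 surface genes were higher and 13 lower (median -0.02, 0 passed in limma, 2 with an unadjusted p under 0.05), and its summed level was 14.17 to 14.34 in vehicle and 14.04 to 14.35 in rosiglitazone. Of 15 crypt base and cycling genes, 13 were higher (median 0.09 against -0.01 over all tested probe sets), and 0 passed (limma, 0 with an unadjusted p under 0.05). Their part in the values of Krt20 and Krt23 was not tested.

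The difference between the responses, knockout minus wild type, was 0.74 for Krt23 (SE 0.24, 95% interval 0.20 to 1.27), and 0.93 (SE 0.17) with the donor as a fixed block, which rests on the 4 mice with both treatments. This contrast shares its wild-type arrays with the choice of Krt23 and is given as a description. For the other keratins it was 0.04 (Krt7), 0.13 (Krt8), -0.08 (Krt18), 0.16 (Krt19) and 0.08 (Krt20), each with an adjusted p of 1 (limma) and an interval that included 0. The intervals reached 0.50, 0.54, 0.40 and 0.52 upward for Krt7, Krt8, Krt18 and Krt19, and 1.6 for Krt20. Of all tested probe sets, 0% passed in this comparison (limma, 536 with an unadjusted p under 0.05). For Krt20 the fixed block gave 0.66 (SE 0.17, adjusted p = 0.957), against 0.08 without it. Within mice, 2 of 6 members, Krt19 and Krt23, had one sign in both wild-type mice and the opposite sign in both knockout mice, as did 11.8% of all tested probe sets.

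**Figure D2:**
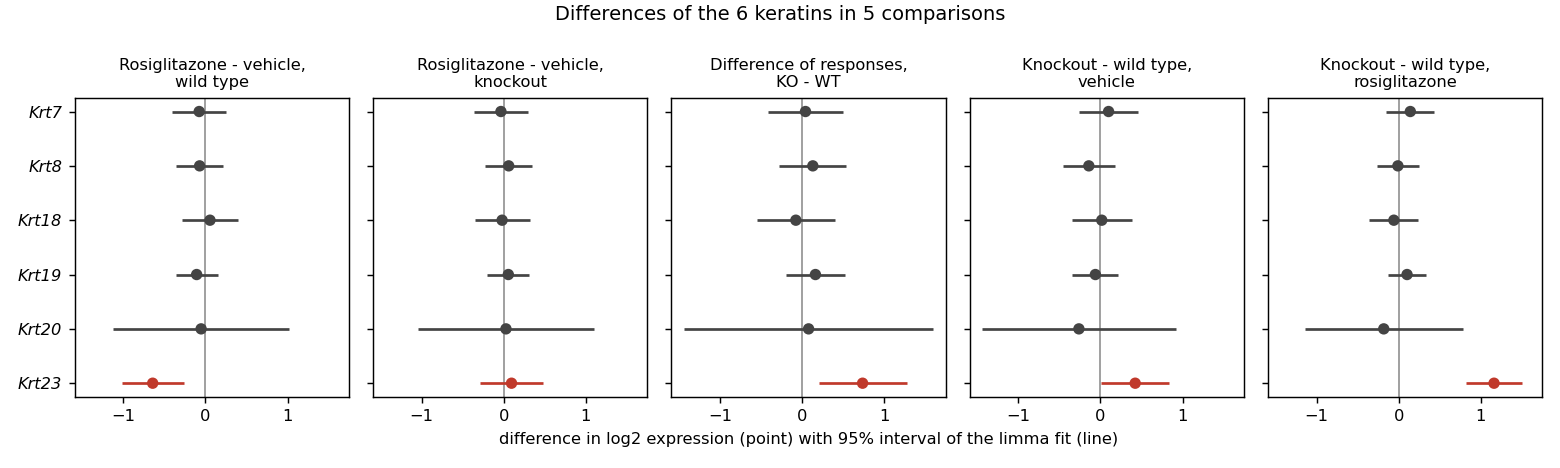
Difference in log2 expression (x axis, points) with the 95% interval of the limma fit (lines) for the 6 keratins (y axis) in the 5 comparisons (panels), Krt23 in red. The intervals of Krt7, Krt8, Krt18, Krt19 and Krt20 include 0 in every panel, while Krt23 lies at -0.64, 0.09, 0.74, 0.42 and 1.16 from left to right. Krt23 was chosen on the comparison of the left panel, whose arrays the middle panel shares. Its intervals in these panels are a description with no test. Each genotype panel also shares a wild-type group with that choice.

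Knockout against wild type in vehicle compares the genotypes without drug, in 2 arrays each. Krt23 was 0.42 higher in the knockout arrays (SE 0.19, 95% interval 0.01 to 0.84), with means of 6.12 ± 0.10 and 5.69 ± 0.0031 (SD, n = 2 each), and did not pass (adjusted p = 0.855, limma). The 2 wild-type arrays are among those on which Krt23 was chosen, so neither the interval nor the p-value is independent evidence. Krt7 was 0.10 higher (SE 0.16, adjusted p = 0.929) and Krt8 0.14 lower (difference -0.14, SE 0.14, adjusted p = 0.888). The groups of these 3 genes did not overlap, 3 of 6 members, where 39.1% of all tested probe sets had groups that did not overlap and 0% passed (limma, 1314 with an unadjusted p under 0.05). Krt18, Krt19 and Krt20 differed by 0.02, -0.06 and -0.26, and their groups overlapped.

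In the same comparison Slc9a3 was 3.08 lower (difference -3.08, SE 0.53, adjusted p = 0.363, limma) and Guca2a 2.19 lower (difference -2.19, SE 0.52, adjusted p = 0.787) in the knockout arrays, with no overlap for either. The knockout vehicle arrays of Slc9a3, at 3.66 and 3.59, were below the median of the annotated probe sets (4.51). The same arrays are the vehicle baseline of its drug difference in knockout. The surface genes as a list had no direction that held under every scaling. Of 23, 15 were lower as deposited (median -0.08) and 17 with quantile normalization repeated (median -0.08). After each array was centred on its median, 9 of 23 were lower (median 0.05). That centring moved the median of all tested probe sets by 0.13, which took Krt19 from -0.06 to 0.07 and Krt23 from 0.42 to 0.55. With the donor as a random block Krt20 was 0.52 lower in knockout (difference -0.52, SE 0.50, adjusted p = 0.998).

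Knockout against wild type in rosiglitazone gave the widest separation of Krt23. The 3 knockout arrays had a mean of 6.21 ± 0.31 and the 3 wild-type arrays one of 5.05 ± 0.073 (SD, n = 3 each), a difference of 1.16 (SE 0.15, 95% interval 0.82 to 1.5), or 2.24-fold. Its adjusted p was 0.0511 in limma, just outside the threshold of 0.05, and it ranked 6 by p among 23099 probe sets. The 5 that passed, 0.0216% of those tested, were 1810065E05Rik, Adhfe1, Arl14, Cyp2c65 and Mt1, and none of the 6 members was among them. Over its 19 alternatives the adjusted p of Krt23 ran from 0.0127 to 0.327, and it was under the threshold in 3 of them. These were the fit without mouse 45 in rosiglitazone (1.34, adjusted p = 0.0127), that on the 4 mice with both treatments (1.35, adjusted p = 0.0219) and that on the brighter probe sets (1.16, adjusted p = 0.0438). The 3 wild-type arrays are among those on which Krt23 was chosen, so the p-value is not independent evidence.

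The other keratins were close between the genotypes under rosiglitazone. Krt8 differed by -0.01 (95% interval -0.27 to 0.25), Krt18 by -0.06 (-0.36 to 0.24), Krt19 by 0.10 (-0.13 to 0.33) and Krt7 by 0.14 (-0.15 to 0.43), each with an adjusted p of 0.999 (limma). Krt20 differed by -0.18 (-1.14 to 0.78, adjusted p = 0.999), and by 0.42 without mouse 45. The groups of Krt19 and Krt23 did not overlap, 2 of 6 members against 8.69% of all tested probe sets, both with the knockout arrays higher. For Krt19 the gap was small, 11.68 to 11.71 against 11.52 to 11.66.

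Set against the mean of the 5 simple-epithelium keratins on the same array, Krt23 kept its separation. A scale shift common to an array cancels in this measure, and only its changes between arrays can be read, since levels of different probe sets are not comparable. The measure was -5.24 and -5.46 in wild-type vehicle, -5.90, -5.79 and -6.14 in wild-type rosiglitazone, -4.83 and -4.89 in knockout vehicle, and -4.78, -4.89 and -4.68 in knockout rosiglitazone. All knockout arrays were above all wild-type arrays, again with no share over all probe sets to set beside it. Mouse 45 was the lowest of the 5 knockout arrays, next to mouse 44 in vehicle, and its low Krt20 is part of the reference there. Against Krt8, Krt18 and Krt19 alone mouse 45 read -6.09, apart from the other knockout arrays (-5.85 to -5.54) and close to the higher wild-type vehicle array (-6.20). Relative to these keratins Krt23 was 0.59 lower after the drug in wild type (difference -0.59), 0.08 higher in knockout, 0.49 higher in knockout than wild type in vehicle and 1.16 higher in rosiglitazone. The mean of the 5 keratins itself differed by -0.05, 0.02, -0.07 and -0.0016 in these comparisons. With Krt8, Krt18 and Krt19 alone as the reference, the relative differences of Krt23 were -0.60, 0.06, 0.49 and 1.15.

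**Figure D3:**
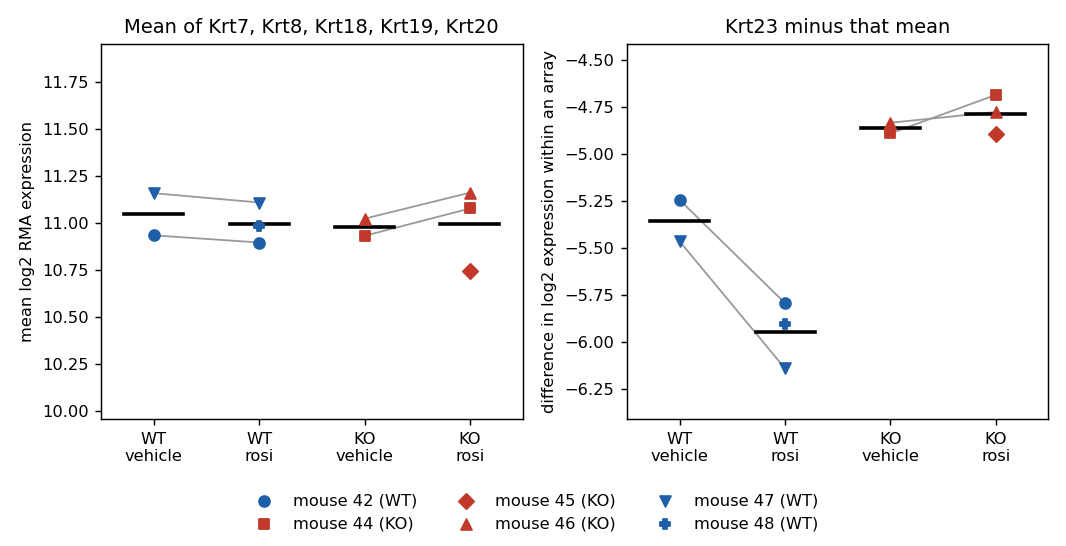
Left, mean log2 expression of Krt7, Krt8, Krt18, Krt19 and Krt20 on each array (y axis). Right, Krt23 minus that mean on the same array (y axis), both by group (x axis), with 1 point per array, a symbol per mouse, a bar at the group mean and a line joining both arrays of a mouse. The group means on the left lie within 0.07 of each other, and those on the right run from -5.95 in wild-type rosiglitazone to -4.78 in knockout rosiglitazone.

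The rest of the keratin family was mostly dim. Of 48 other keratins listed, 44 were measured by a probe set of a single symbol, and 38 of these were below the median of all probe sets on every array. Those with a mean above it were Krt4, a type II keratin of stratified mucosa, Krt80, a type II keratin found in many epithelia, and Krt84, a type II keratin of hair and tongue. In each of the 5 comparisons 0 of the 24 type I and 0 of the 20 type II keratins passed in limma, as deposited, centred or quantile-normalized again, and at most 3 of a list had an unadjusted p under 0.05. In knockout against wild type under rosiglitazone the median differences were 0.0049 and -0.0041, beside 0.0021 over all tested probe sets, and in rosiglitazone against vehicle in wild type they were 0.06 and 0.08, beside 0.01. The dim keratins lie where an array separates signal from background least well. Krt23 was above that median on every array, but nearest to it of the 6 members, with a mean of 5.74 and a lowest value of 4.97 against 4.51. The part of this low level in its range was not tested.

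Several of these keratins followed mouse 46 and not the group. Krt84 read 8.03 in vehicle and 8.43 in rosiglitazone in mouse 46, and between 3.29 and 5.33 in the other 8 arrays. Krt39, a type I hair keratin that lies next to Krt23 in the cluster, read 5.75 on both arrays of mouse 46 and 3.42 to 4.73 elsewhere. Krt4 went the other way, at 9.09 and 9.05 in mouse 46 and 10.01 to 10.63 elsewhere. The differences of Krt84 between the genotypes, 1.48 (SE 1.6) in vehicle and 1.79 (SE 1.31) in rosiglitazone, thus rested on 1 mouse. Of 15 genes of squamous and anal transition epithelium, Krt4 and Sprr1a were above the median of all probe sets, while Krt5, Krt14 and Trp63, which define its basal cells, reached 3.40, 3.85 and 3.41 at most. Krt23 did not share this pattern, since mouse 46 (6.19 and 6.39) and mouse 44 (6.04 and 6.39) were alike, and without both arrays of mouse 46 its difference between genotypes in rosiglitazone was 1.07 (adjusted p = 0.195). Keratins are close relatives, and binding of RNA of one by probes for another was not tested.

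**Figure D4:**
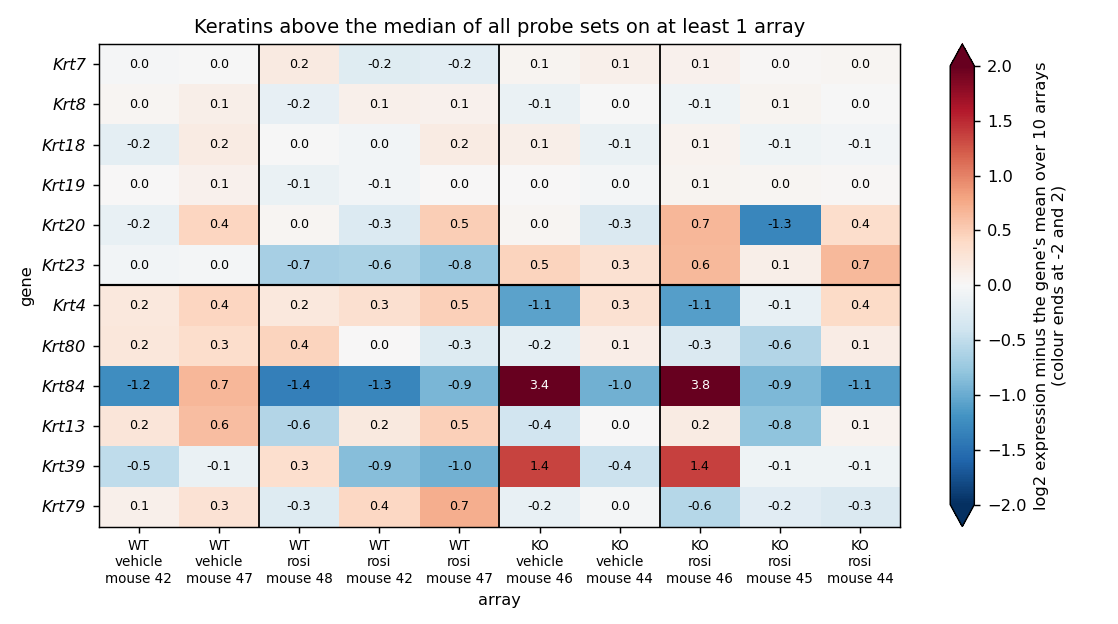
Log2 expression minus the gene's own mean over the 10 arrays (colour and printed value) for the 6 keratins above the line and for 6 other keratins that exceeded the median of all probe sets on at least 1 array (y axis), by array (x axis). The row of Krt23 is lowest in the 3 wild-type rosiglitazone arrays and above its mean in the 5 knockout arrays, while Krt84, Krt39 and Krt4 stand out in both arrays of mouse 46.

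The neighbours of Krt23 in the gene cluster differed from it in some comparisons and not in others. In knockout against wild type under rosiglitazone Krt20, on one side, differed by -0.18 and Krt12 and Krt10 beyond it by -0.09 and 0.14. On the other side Krt39 differed by 0.89, with the high arrays of mouse 46, and Krt40 by 0.16. In rosiglitazone against vehicle in wild type these 5 genes ran from -0.18 (Krt39) to 0.19 (Krt40), against -0.64 for Krt23. In knockout against wild type in vehicle, Krt39 (0.78) and Krt40 (0.40) were higher, as was Krt23 (0.42), while Krt20 (-0.26) and Krt12 (-0.11) were lower and Krt10 differed by 0.06. Krt10, Krt12, Krt39 and Krt40 had means below the median of all probe sets.

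The proteins that anchor keratin filaments were measured well, with 18 of 21 linkers and desmosome genes above the median of all probe sets. Of the 21, 0 passed in each of the 5 comparisons (limma, 0 with an unadjusted p under 0.05), and the median differences ran from -0.08 (difference between the responses) to 0.02 (genotype in vehicle). No direction is given for the list, because centring the arrays turned it in the comparison of genotypes under rosiglitazone (median -0.02 before and 0.06 after). Repeated quantile normalization left that median at -0.03. In knockout against wild type under rosiglitazone the largest differences were those of Dst, a plakin that ties filaments to hemidesmosomes (0.33, SE 0.25), and Eppk1, the plakin epiplakin (-0.33, SE 0.15). In rosiglitazone against vehicle in wild type they were those of Evpl, the plakin envoplakin (0.38, SE 0.18), and Pkp3, a plakophilin of desmosomes (0.25, SE 0.20). Of 17 other intermediate filament genes, the lamins Lmna, Lmnb1 and Lmnb2, the neurofilament gene Nefh and Iffo2 were above the median, and 0 of 17 passed in each comparison (limma, at most 3 with an unadjusted p under 0.05). Vim, the filament of mesenchymal cells, and Des, that of muscle, reached 3.39 and 3.33 at most. Of 9 measured genes of fetal-like and repairing epithelium, all above the median, 0 passed in each comparison (limma, at most 2 with an unadjusted p under 0.05). The largest difference was that of Clu, a secreted chaperone, which was 0.59 lower in knockout than wild type in vehicle (difference -0.59, SE 0.18, adjusted p = 0.846).

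The genes most like Krt23 over the 10 arrays, among 9452 genes above the median, were Sccpdh (Pearson r = 0.93), Pfkfb2 (0.91), Csrp2 (0.91), Tinag (0.90) and Malsu1 (0.90). They are a description of these arrays, which share mice and groups. Pfkfb2, a kinase that sets the level of a glycolytic activator, was 0.08 lower after the drug in wild type (difference -0.08) and 0.23 higher in knockout than wild type under rosiglitazone. Tinag, a basement membrane protein first found in kidney, differed between the genotypes by 1.09 in vehicle and 1.07 in rosiglitazone, and by -0.22 for the drug in wild type. Sccpdh differed by -0.34 for the drug in wild type and by 0.64 between the genotypes under rosiglitazone.

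The genes most like Krt20 were Atp6v1e1 (r = 0.94), a subunit of the vacuolar proton pump, Ier3ip1 (0.93), Sec23a (0.92), a coat protein of transport vesicles, Fam3b (0.91) and Capg (0.91), an actin-capping protein. Those most like Krt8 were Prmt7 (0.96), Pex2 (0.94), Gtf3c4 (0.92), Lipo3 (0.92) and Pycard (0.92), and those most like Krt7 were Prrc2c (0.90), Slk (0.87), Togaram1 (0.86), Ubxn7 (0.85) and Pde4d (0.84). None of these 15 genes was a keratin. The range of Krt8 and Krt7 over the arrays was 0.28 and 0.43, so the likeness of their patterns rests on small differences.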

How the data were processed

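Expression was measured on Affymetrix whole-transcript arrays. Per the submitters' processing notes the authors used RMA, so the deposited values are log2 expression per probe set. Its version and the chip definition are not given in the sources used here. Each of the 10 columns has its sample's name. Of 35556 probe sets, the 23099 in the platform annotation were tested (21218 with 1 symbol, 1881 with several). For a gene with several probe sets that with the highest mean stood for it. Arrays give no count depth, and their number limits the precision.

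Group means were fitted over all 10 arrays with lmFit and eBayes of limma 3.58.1 in R 4.3.3 (6 residual and 4.39 prior degrees of freedom). Tests of the 5 comparisons were two-sided, with Benjamini-Hochberg adjustment over the 23099 probe sets and a threshold of 0.05. The script was tested on simulated data. The members and lists were chosen with earlier results of these data known. Genes named beside the 6 members are the neighbours of Krt23, the 5 genes most like each of Krt23, Krt8, Krt7 and Krt20, and up to 2 genes of each list with the largest difference among those above the median. Some genes of the rule with small differences are left out. Krt13 and Krt79 in the map, Krt39, Vim, Des and the markers of other cells were named outside it, after their values were seen.

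The labels give the donor of each array, so mice pair the treatments. As a check of the pairing, the difference between mice of 1 genotype was compared across treatments over all probe sets, with r = 0.44 for mice 42 and 47 and r = 0.487 for mice 44 and 46, and 8 of 8 arrays were closest to their own mouse. Replicate numbers do not mark the mouse. The donor as a random block (duplicateCorrelation, consensus correlation 0.438, statmod 1.5.0) or a fixed block was an alternative, as were other scalings, filters and samples. Cultures of 1 mouse are not independent.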

Additional observations from a re-analysis of the deposited data

Results flagged for a closer look

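For 2 of the 6 keratins, rosiglitazone and vehicle differed in one direction in both paired wild-type mice and in the opposite direction in both paired knockout mice, a pattern that 11.8% of all tested probe sets had. For Krt23 the differences were -0.59 in mouse 42 and -0.73 in mouse 47 (wild type), 0.35 in mouse 44 and 0.20 in mouse 46 (knockout), and the knockout mean exceeded the wild-type mean by 0.93. For Krt19 they were -0.06 and -0.08 in wild type and 0.07 and 0.05 in knockout, a difference of 0.13. For Krt23 this difference was not tested, because the gene was chosen on these arrays. For Krt19 the test of the difference between the responses gave 0.16 (SE 0.16, adjusted p = 1, limma). The groups held 2 or 3 arrays each, too few for a check for a single array far from the others.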

How the results depend on the processing

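Krt23 kept its direction in all 97 of its alternative values. Of these, 20 for the drug in wild type and 19 for the difference of responses carry no test. Krt23 was chosen on the wild-type arrays, so a kept direction there is no support. The genotype comparisons share those wild-type arrays. For the drug in knockout, where Krt23 differed by 0.09, leaving out 1 array gave 0.0034 to 0.27. Its difference between the responses was 0.93 with the donor as a fixed replicate block and on the 4 mice with both treatments, against 0.74, and its measure relative to the 5 keratins moved by less than the SD within groups under every alternative run. Neither the random nor the fixed replicate block changed a call of a member. The 5 other members had an adjusted p under 0.05 in 0 of 485 alternative values, and 44 of these values changed sign, with sizes of at most 0.42. Each member has 1 probe set, so the alternative with other probe sets could not be run. The causes of the changes were not tested.

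The count of probe sets that passed moved from 0 to 1 for the drug in knockout with the random replicate block. For genotype in vehicle it moved from 0 to 1 with that block, with repeated quantile normalization and with bright probe sets only, to 2 with centring and with an intensity trend, to 4 with only the groups compared and to 6 on the mice with both treatments, and leaving out 1 array gave 0 to 6. For genotype in rosiglitazone it moved from 5 to 16 on the mice with both treatments, to 8 with the trend, and to 1 without mouse 46, with repeated quantile normalization, with all deposited probe sets and with only the groups compared. Leaving out 1 array gave 1 to 23, the most without mouse 48 in wild-type rosiglitazone.

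Among values that changed sign, for the drug in wild type Krt8 became 0.013 with the fixed replicate block and on the mice with both treatments. For the drug in knockout Krt18 became 0.012 under the same alternatives and 0.057 without mouse 46, and Krt20 became -0.19 without mouse 46. For the difference of responses without mouse 46, Krt18 became 0.0014 and Krt20 became -0.14. For genotype in vehicle, Krt18 became -0.11 without mouse 46 and Krt19 0.066 with centring. For genotype in rosiglitazone, Krt8 became 0.026 without mouse 46, 0.077 with centring and 0.077 with repeated quantile normalization, Krt18 became 0.027 with centring, and Krt20 became 0.40 on the mice with both treatments. Leaving out each array in turn gave ranges across 0. For the drug in wild type these were -0.21 to 0.00036 (Krt7), -0.12 to 0.013 (Krt8), -0.12 to 0.24 (Krt18) and -0.34 to 0.24 (Krt20), and for the drug in knockout -0.14 to 0.10 (Krt18) and -0.35 to 0.63 (Krt20). For the difference of responses they were -0.035 to 0.18 (Krt7), -0.26 to 0.10 (Krt18) and -0.30 to 0.68 (Krt20). For genotype in vehicle they were -0.16 to 0.20 (Krt18) and -0.55 to 0.028 (Krt20), and in rosiglitazone -0.094 to 0.036 (Krt8), -0.11 to 0.0056 (Krt18) and -0.56 to 0.42 (Krt20). With 1 array left in a group, it was assumed to vary like the other groups.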
